A study of Mus musculus with 11 samples.

Results

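The insulin-like growth factor (IGF) genes were followed across mesenchymal cell populations of the mouse small intestine. The 9 genes were taken by symbol and not by their values: the ligands Igf1 and Igf2, the receptor Igf1r and the binding-protein genes Igfbp2, Igfbp3, Igfbp4, Igfbp5, Igfbp6 and Igfbp7. They are 9 of the 24943 gene names kept in the bulk count table, and all 9 are also among the 27999 genes of a single-cell library of sorted cells and the 31053 genes of each of 2 single-cell libraries of whole mesenchyme.

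Bulk RNA sequencing covered 4 sorted populations with 2 libraries each. Telocytes, thin subepithelial cells with high PDGFRA, were the GFP-high cells of PDGFRA-H2B-EGFP transgenic mice, in which a nuclear GFP reports Pdgfra expression. PDGFRAlo stromal cells were the GFP-low cells of the same line, blood endothelium was CD31+LYVE1- and lymphatic endothelium CD31+LYVE1+, the last 2 from C57BL/6 mice. The PDGFRA populations thus differ from the endothelial ones in mouse line as well as in cell type, and these cannot be told apart. All cells came from small intestine with the muscle layer and the epithelium taken off. The sorted single-cell library mixed GFP-low and GFP-high cells at 2:1, and the 2 whole-mesenchyme libraries carry the same sorting text in their labels. They were used here as whole mesenchyme, as titled. By the marker lists described below they held 1019 and 1022 T or innate lymphoid-like and 877 and 865 plasma-like cells. Ages and sexes are not given, and neither is whether replicate libraries came from separate animals, so p-values may measure technical spread.

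IGF1 and IGF2 are small secreted growth factors that act mainly through the receptor tyrosine kinase IGF1R. The classical secreted binding proteins hold the ligands with high affinity, lengthen their life in tissue fluid and either withhold them from the receptor or deliver them to it. IGFBP7 carries a related amino-terminal domain but binds IGFs only weakly and is known for its deposition around blood vessels. In the intestine, mesenchymal IGF1 is known as a trophic signal to crypt epithelium and smooth muscle.

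On GRCm38, as annotated by GENCODE M21, Igf1 is at chr10:87858265-87937042 on the plus strand, Igf2 at chr7:142650766-142666816 on the minus strand and Igf1r at chr7:67952827-68233668 on the plus strand. Igfbp2 (chr1:72824503-72852474, plus strand) and Igfbp5 (chr1:72857932-72874884, minus strand) are 5457 bp apart. Igfbp3 is at chr11:7206086-7213923 on the minus strand, and Igfbp4 at chr11:99041244-99054392 on the plus strand. Igfbp6 is at chr15:102144362-102149511 on the plus strand, and Igfbp7 at chr5:77349240-77408041 on the minus strand. Exons of Igf2 overlap those of Igf2os and exons of Igfbp7 those of Polr2b, each on the opposite strand. The strand setting of the authors' counting is not given in the sources used here, so reads of these pairs cannot be told apart in the bulk table.

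The binding proteins share a cysteine-rich stretch in their amino-terminal domain. It is shown to let a reader see what unites Igfbp2 to Igfbp5 and Igfbp7, and how Igfbp6, the binding protein that differed most between the stromal populations, departs from it. Each line holds the 24 bases of 8 codons of the GENCODE M21 coding sequence, 5′ to 3′, with the cysteine codons in capitals.
Igfbp2: ggcTGCggcTGCTGCtccgtgTGC
Igfbp3: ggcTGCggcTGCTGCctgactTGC
Igfbp4: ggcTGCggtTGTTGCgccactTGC
Igfbp5: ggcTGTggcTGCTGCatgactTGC
Igfbp6: ggcTGTacagaagccggaggcTGT
Igfbp7: gcgTGCgggTGCTGCccggtgTGT
In this stretch Igfbp6 has 2 cysteine codons and each of the other 5 has 4.

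The bulk libraries held 8549348 to 55382442 counts. Pdgfra was at 2401 and 2972 CPM (counts scaled to library totals, with edgeR's TMM factors) in telocytes, at 330 and 471 in PDGFRAlo cells and at 30.2 or less in the 4 endothelial libraries. Lyve1 was at 1919 and 3415 CPM in lymphatic endothelium and at most 62.9 elsewhere, and Prox1 at 104 and 119 against at most 11.8. Pecam1, the gene of CD31, was at 299 and 93.4 CPM in PDGFRAlo cells, where all 9 blood-endothelium markers summed to 4149 and 2711 CPM, against 100 and 57.8 in telocytes and 18214 and 18706 in blood endothelium. That list holds Cd34, which is also on the fibroblast list. In the lymphatic libraries, 5 plasma-cell markers summed to 172120 and 67072 CPM and 8 macrophage or dendritic-cell markers to 12983 and 16184 CPM, against 5071 and 5165 and against 4781 and 2991 in blood endothelium. The part of such cells in the bulk differences between blood and lymphatic endothelium below, those of Igf2, Igf1r and Igfbp7 included, was not tested. In bulk, fewer cells of a type and less RNA per cell cannot be told apart.

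Of the 9 genes, 8 passed the filter on low counts in bulk and were tested with the 14893 genes that passed. Igfbp2, which encodes a circulating binding protein, had 7 counts in all 8 libraries together and was not tested. Between telocytes and PDGFRAlo cells, edgeR's quasi-likelihood test with Benjamini-Hochberg adjustment called 0 of the 8 genes higher and 4 lower in telocytes (Igf2, Igfbp3, Igfbp4 and Igfbp6), where 14.9% of all genes tested were called, 2.77% higher and 12.1% lower. Between blood and lymphatic endothelium, 3 were higher in blood (Igf2, Igf1r and Igfbp7) and 0 lower, where 23% of all genes were called, 14.7% higher and 8.32% lower. With the PDGFRA populations set against the endothelial ones, 2 were higher (Igf1 and Igfbp5) and 1 lower (Igf2), beside 60.5% of all genes called, 28.8% higher and 31.7% lower. The 3 of 8 in this last contrast are a smaller share than that of all genes.

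Igf1, the ligand that growth hormone induces in many tissues, was a stromal transcript in bulk. Its level was 383 and 325 CPM in telocytes, 330 and 199 in PDGFRAlo cells, 37.0 and 24.4 in blood endothelium, and 23.4 and 44.1 in lymphatic endothelium. All 4 PDGFRA libraries lie above all 4 endothelial ones, and the populations within each side overlap. The PDGFRA populations were 3.25 higher than the endothelial ones on the log2 scale (SE 0.33, adjusted p = 4.63e-05). Between the 2 stromal populations the difference was 0.42 (SE 0.42, adjusted p = 0.639), and between the endothelial ones -0.14 (SE 0.42, adjusted p = 0.845). In the order of levels, only the step from PDGFRAlo cells to lymphatic endothelium passed the test (2.97, SE 0.46, adjusted p = 0.00124, in a pair with 44.3% of all genes called, 24.1% higher and 20.2% lower in PDGFRAlo cells).

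Igf2, the fetal growth factor encoded by an imprinted gene, was highest in blood endothelium and lowest in telocytes. Outside blood endothelium its counts were far lower than those of Igf1. It was at 40.4 and 33.2 CPM in blood endothelium, 8.45 and 5.55 in PDGFRAlo cells, 5.00 and 5.24 in lymphatic endothelium, and 0.64 and 0.54 in telocytes, the last from 9 counts in each library. Blood endothelium stands above and telocytes below all other libraries, and PDGFRAlo cells lie just above lymphatic endothelium. Telocytes were lower than PDGFRAlo cells by a log2 difference of -3.55 (SE 0.45, adjusted p = 0.00104). The blood-endothelium markers given above were also higher in PDGFRAlo cells than in telocytes, and Igf2 was highest in blood endothelium; their part in this difference, and in those of Igfbp3 and Igfbp4 between the same populations, was not tested. Blood was above lymphatic endothelium by 2.84 (SE 0.40, adjusted p = 0.00247), and the PDGFRA populations were below the endothelial ones by a difference of -2.75 (SE 0.30, adjusted p = 7.25e-05), which became -4.18 with the lymphatic libraries left out. The steps from blood endothelium to PDGFRAlo cells (adjusted p = 0.00159) and from lymphatic endothelium to telocytes (adjusted p = 0.000596) passed. In the first of these pairs 42.5% of all genes were called, 21.2% higher and 21.3% lower in PDGFRAlo cells, and in the second 51%, 24% higher and 27% lower in telocytes. The step from PDGFRAlo cells to lymphatic endothelium did not (0.45, SE 0.38, adjusted p = 0.368). The value for PDGFRA against endothelial populations thus averages unlike populations on each side.

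Igf1r, the receptor for both ligands, was present in every population. It was at 26.6 and 35.8 CPM in telocytes, 74.7 and 30.5 in PDGFRAlo cells, 38.2 and 50.4 in blood endothelium, and 17.7 and 9.08 in lymphatic endothelium. Both lymphatic libraries lie below the other 6, which overlap one another. Blood endothelium was above lymphatic endothelium by 1.74 (log2, SE 0.49, adjusted p = 0.0333). This call was lost without any 1 of the 4 endothelial libraries, with adjusted p between 0.0513 (without lymphatic library 1) and 0.194 (without lymphatic library 2). No step between neighbours in the order of its levels passed, although DESeq2 and 4 other alternatives called the step from telocytes to lymphatic endothelium (1.23, adjusted p = 0.0603).

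**Figure D1:**
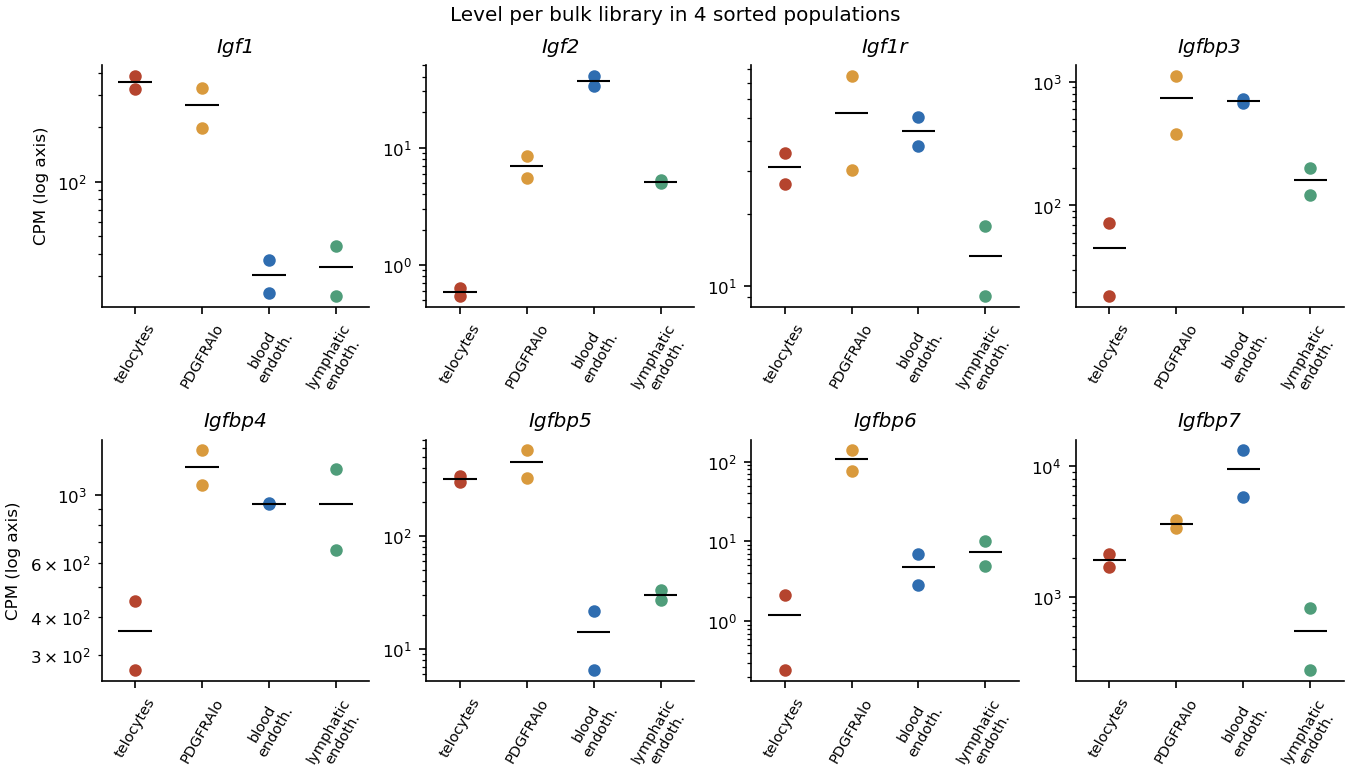
Level of the 8 tested IGF genes in each of the 8 bulk libraries (TMM-scaled CPM, log axis, with its own range in each panel), with points for libraries and bars for the mean of 2. Igf1 and Igfbp5 are higher in all 4 PDGFRA libraries than in the endothelial ones, Igf2 and Igfbp7 are highest in blood endothelium, and Igfbp6 is highest in PDGFRAlo cells.

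Igfbp3, the main carrier of IGFs in serum, was lowest in telocytes. It was at 18.5 and 71.6 CPM there, against 1109 and 378 in PDGFRAlo cells, 720 and 674 in blood endothelium, and 121 and 201 in lymphatic endothelium. No telocyte library reaches any other, and PDGFRAlo cells and blood endothelium overlap. Telocytes were below PDGFRAlo cells by a log2 difference of -4.04 (SE 0.75, adjusted p = 0.00643), which was -3.39 without telocyte library 1, -5.33 without telocyte library 2 and -3.04 without PDGFRAlo library 1, each time with the call. The PDGFRAlo library with more Igfbp3 is also the one with more Pecam1 and the larger sum of blood-endothelium markers, and the part of these in its level was not tested. Blood against lymphatic endothelium gave 2.11 (SE 0.69, adjusted p = 0.0550). It was called in 7 alternatives, among them DESeq2 (0.00782), no low-count filter (0.0011), the 4 endothelial libraries alone (0.0237) and the fits without 1 of the PDGFRA libraries, and it reached an adjusted p of 0.227 without lymphatic library 1.

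Igfbp4, a binding protein known to restrain IGF action until the protease PAPP-A cuts it, was at 451 and 268 CPM in telocytes, 1394 and 1075 in PDGFRAlo cells, 930 and 941 in blood endothelium, and 659 and 1210 in lymphatic endothelium. Telocytes lie below all other libraries, lymphatic endothelium spans the range of blood endothelium and overlaps PDGFRAlo cells. The difference between telocytes and PDGFRAlo cells was -1.78 (log2, SE 0.45, adjusted p = 0.0267). It lost its call without TMM scaling (adjusted p = 0.0715) and without any 1 of the 4 libraries compared, with adjusted p from 0.0576 (without PDGFRAlo library 2) to 0.259 (without telocyte library 2). Blood and lymphatic endothelium differed by 0.00 (SE 0.44), with an SE that leaves room for a difference either way.

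Igfbp5, a binding protein that also attaches to extracellular matrix, followed Igf1 across the bulk populations. It was at 301 and 337 CPM in telocytes, 328 and 571 in PDGFRAlo cells, 6.50 and 21.95 in blood endothelium, and 33.5 and 27.1 in lymphatic endothelium. The 4 PDGFRA libraries lie above the 4 endothelial ones, with overlap inside the stromal pair. The PDGFRA populations were above the endothelial ones by 4.19 (log2, SE 0.43, adjusted p = 5.15e-05), while telocytes and PDGFRAlo cells differed by -0.50 (SE 0.53, adjusted p = 0.666). Over the 8 libraries its log2 level had a Pearson correlation of 0.90 with that of Igf1. The libraries behind that value fall into a stromal and an endothelial set, so it describes the difference between these sets.

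Igfbp6, a binding protein that prefers IGF2 over IGF1, was a PDGFRAlo transcript. It was at 76.4 and 138 CPM in PDGFRAlo cells, 2.14 and 0.24 in telocytes, 6.88 and 2.81 in blood endothelium, and 9.99 and 4.91 in lymphatic endothelium. Both PDGFRAlo libraries stand clear of the other 6. Telocytes were below them by a log2 difference of -6.52 (SE 0.92, adjusted p = 0.00165; -8.77 without telocyte library 1 and -5.65 without telocyte library 2, both called), and lymphatic endothelium, next in the order, was below PDGFRAlo cells by 3.87 (SE 0.80, adjusted p = 0.00503). The telocyte level rests on 30 and 4 counts. The step from blood endothelium down to telocytes did not pass (2.07, SE 0.81, adjusted p = 0.0572) but was called by DESeq2, without the low-count filter, and without telocyte library 1 or blood library 2 (lowest adjusted p = 0.00173), in a pair with 52.1% of all genes called, 22.6% higher and 29.6% lower in telocytes.

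Igfbp7, the vascular and matrix-bound relative, had the most CPM of the 9 in every library but the second lymphatic one, where Igfbp4 had more. It was at 2123 and 1697 CPM in telocytes, 3861 and 3380 in PDGFRAlo cells, 13123 and 5788 in blood endothelium, and 818 and 276 in lymphatic endothelium. The 4 populations do not overlap. Blood was above lymphatic endothelium by 4.11 (log2, SE 0.68, adjusted p = 0.00419), by 3.41 without blood library 1 and by 5.10 without lymphatic library 1, both called. The PDGFRA populations against both endothelial ones gave 0.21 (SE 0.43, adjusted p = 0.692). With the lymphatic libraries left out, so that blood endothelium stood alone on that side, the value became -1.86 (adjusted p = 0.00790), and Igfbp3 was then also called lower (-1.94, adjusted p = 0.0244).

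Of the 24 steps between neighbouring populations in the order of the 8 genes' levels, 8 passed the test. The share of such steps over all genes was not counted, so this count has no background. In single pairs of populations, 14.9% to 52.1% of all genes were called. Beside the steps named above, those that passed were from lymphatic endothelium down to telocytes for Igfbp3 (1.84, adjusted p = 0.0489) and Igfbp4 (1.38, adjusted p = 0.0279), and from telocytes down to lymphatic endothelium for Igfbp5 (3.40, adjusted p = 0.00151) and Igfbp7 (1.80, adjusted p = 0.0357). The calls for Igfbp3, Igfbp4 and Igfbp7 were each lost when single libraries were left out: without lymphatic library 2 in each case, without telocyte library 1 in each case, and without telocyte library 2 for Igfbp4 and Igfbp7. That for Igfbp3 was also lost without each other endothelial library, and those for Igfbp3 and Igfbp4 without TMM scaling. Over all alternatives the highest adjusted p was 0.262 for Igfbp3 and 0.143 for Igfbp7. The call for Igfbp5 held in every alternative run, with a highest adjusted p of 0.0169.

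To compare genes with one another, levels were divided by the length of each gene's merged exons. On this scale of CPM per kilobase, Igfbp2 to Igfbp7 summed to 1730 ± 263 (SD, n = 2) in telocytes, 3683 ± 430 in PDGFRAlo cells, 8262 ± 4300 in blood endothelium and 728 ± 215 in lymphatic endothelium. Igfbp7 made up 91.3% ± 0.50 of that sum in telocytes, 81.4% ± 1.86 in PDGFRAlo cells, 93.9% ± 3.08 in blood endothelium and 58.3% ± 26.3 in lymphatic endothelium. The lymphatic libraries disagree: Igfbp7 was 77.0% of the sum in the first and 39.7% in the second, where Igfbp4 reached 47.6%. The remainder was Igfbp4 (4.63%) and Igfbp5 (3.12%) in telocytes, and Igfbp4 (7.56%), Igfbp3 (6.23%), Igfbp6 (2.70%) and Igfbp5 (2.09%) in PDGFRAlo cells. Igf1 was at 35.8 ± 4.11 CPM per kilobase in telocytes and 26.7 ± 9.32 in PDGFRAlo cells, and Igf1r at 1.86 ± 0.39 and 3.13 ± 1.86. In blood endothelium Igf2, at 6.43 ± 0.89, was above Igf1, at 3.10 ± 0.90, in both libraries.

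**Figure D2:**
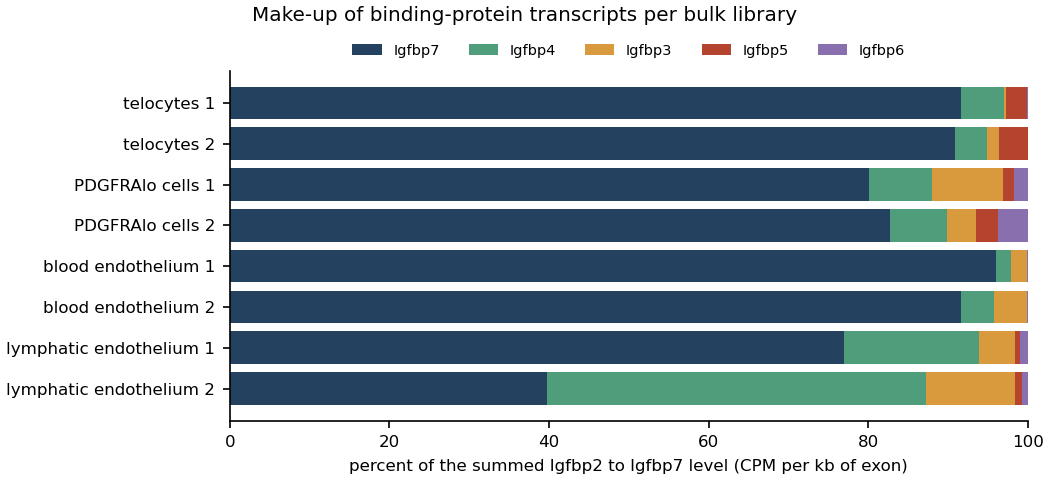
Share of each binding-protein gene in the summed level of Igfbp2 to Igfbp7 (percent of CPM per kilobase of exon), with 1 bar for each bulk library. Igfbp7 fills most of every bar except that of the second lymphatic library, where Igfbp4 has the larger share.

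The single-cell libraries reach cells that bulk sorting did not take. Kept cells numbered 3845 in the sorted library and 6128 and 5927 in the whole-mesenchyme libraries, which share 7 cell barcodes with each other, while the sorted library shares 1 with the first and 0 with the second. Cells were assigned to classes by marker lists that contain none of the 9 genes, and each class is named "-like" after its list. In whole mesenchyme these held 140 and 133 telocyte-like, 1057 and 984 fibroblast-like, 264 and 224 smooth muscle-like, 100 and 92 pericyte-like, 153 and 148 blood endothelial-like and 86 and 83 lymphatic endothelial-like cells. A smooth muscle-like class is present although the muscle layer had been taken off. Levels are UMI CPM of a class in whole-mesenchyme library 1 and library 2, with TMM factors. Igf2, with 0 to 3 UMIs in each class and library, and Igfbp2, with 0 or 1, were too rare to test, which left 7 of the 9 genes among 12685 tested.

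Igf1 was highest in smooth muscle-like cells. It was at 587 and 602 UMI CPM there, 319 and 294 in fibroblast-like, 246 and 217 in telocyte-like, 68.2 and 28.1 in pericyte-like and 22.6 and 18.4 in blood endothelial-like cells. Lymphatic endothelial-like cells had 0 UMIs of Igf1 in both libraries, and the 6 classes do not overlap between libraries. Smooth muscle-like cells exceeded pericyte-like cells by 3.60 (log2, SE 0.17, adjusted p = 3.66e-16). The pericyte-like level rests on few cells: 7 cells in each library held its 48 and 18 UMIs, and with the stricter rule of 5 markers, which kept 77 of 100 and 81 of 92 cells, 1 and 7 UMIs were left and the difference was 6.38. Blood endothelial-like cells had 37 Igf1 UMIs in both libraries together. This level was 7.35-fold that of a floor of 3 UMIs over both libraries, taken for lymphatic endothelial-like cells. The fold leaves out the counting error of the 37 UMIs. Barcodes with few UMIs, which hold free RNA, had 66.9 and 64.5 UMI CPM of Igf1 without TMM factors. The part of free RNA in the blood endothelial-like level was not tested. Of all Igf1 UMIs, fibroblast-like cells held 58.0% and 57.7%, smooth muscle-like cells 27.2% and 27.9%, and telocyte-like cells 6.88% and 7.28%.

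Smooth muscle-like, fibroblast-like and telocyte-like cells kept their order in the share of cells with an Igf1 UMI, after each cell was thinned to 2000 UMIs. It was 60.7% and 64.3% of smooth muscle-like cells, 44.2% and 41.8% of fibroblast-like cells and 37.7% and 29.3% of telocyte-like cells (83.0% and 81.3%, 78.4% and 74.7%, and 62.1% and 62.4% without thinning). The share was 5.10% and 3.30% of pericyte-like and 4.86% and 3.62% of blood endothelial-like cells, whose order turned in library 2. T or innate lymphoid-like cells, which should lack the transcript, gave 0.302% and 0.299%, at a median depth of 3415 and 3451 UMIs against 6403 and 6610 in smooth muscle-like cells. In lymphatic endothelial-like cells it was 0 of 81 and 0 of 83, with exact 95% binomial intervals reaching 4.45% and 4.35%. The bulk lymphatic libraries, at 23.4 and 44.1 CPM of Igf1, hold the macrophage and plasma-cell markers given above. Macrophage or dendritic-like cells had 17.3 and 14.9 UMI CPM of Igf1, and their part in the bulk level was not tested.

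Igf1r was broad. It was at 211 and 212 UMI CPM in smooth muscle-like, 170 and 173 in fibroblast-like, 138 and 158 in pericyte-like, 94.9 and 92.0 in blood endothelial-like, 90.7 and 88.1 in lymphatic endothelial-like and 65.9 and 57.7 in telocyte-like cells. Telocyte-like cells were the lowest of the 6 in both libraries. They were below fibroblast-like cells by a log2 difference of -1.47 (SE 0.12, adjusted p = 3.62e-12). Smooth muscle-like cells were above pericyte-like cells by 0.52 (SE 0.12, adjusted p = 0.00203), and the endothelial-like classes differed by 0.06 (SE 0.19, adjusted p = 0.887), where bulk gave 1.74.

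**Figure D3:**
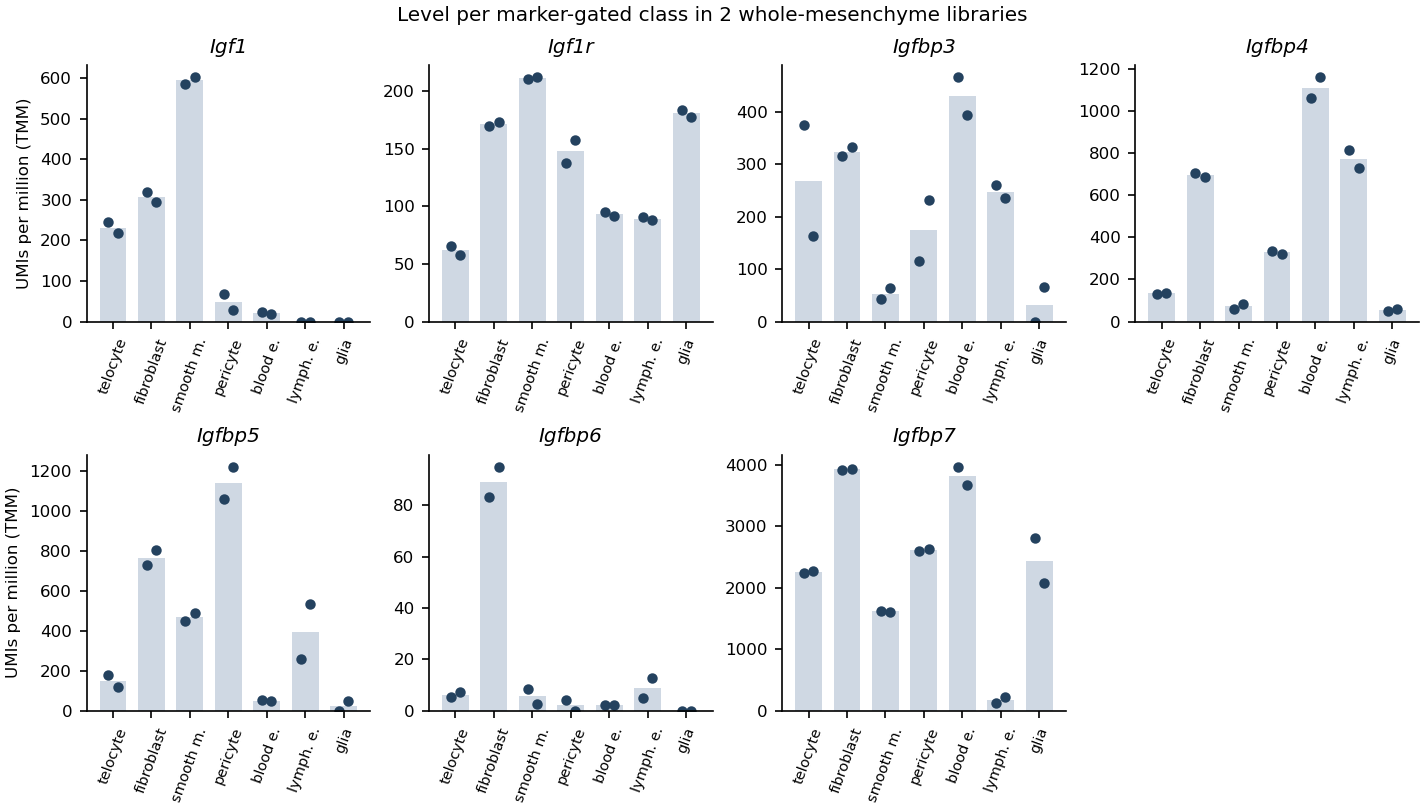
Level of 7 IGF genes in 7 marker-defined classes of the 2 whole-mesenchyme libraries (TMM-scaled UMI CPM, linear axes from 0), with points for libraries and bars for their mean. Smooth muscle-like cells are highest for Igf1, pericyte-like cells for Igfbp5 and fibroblast-like cells for Igfbp6, and lymphatic endothelial-like cells are low for Igfbp7.

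The binding proteins split the muscle, vascular and stromal classes. Igfbp5 peaked in pericyte-like cells, at 1058 and 1220 UMI CPM, followed by fibroblast-like (728 and 804), smooth muscle-like (448 and 488), lymphatic endothelial-like (259 and 532), telocyte-like (181 and 121) and blood endothelial-like cells (52.8 and 50.6). A UMI of Igfbp5 was found in 70.4% and 67.0% of pericyte-like cells after thinning (79.0% and 78.3% before), against 0.504% and 0.699% of T or innate lymphoid-like cells. Igfbp4 was highest in blood endothelial-like (1061 and 1159) and lymphatic endothelial-like cells (815 and 727), then fibroblast-like (704 and 688) and pericyte-like cells (337 and 323). Telocyte-like (133 and 135) and smooth muscle-like cells (61.5 and 84.9) had the least Igfbp4 of the 6 classes.

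Igfbp3 was at 466 and 393 UMI CPM in blood endothelial-like, 315 and 333 in fibroblast-like, 375 and 163 in telocyte-like, 260 and 235 in lymphatic endothelial-like, 115 and 233 in pericyte-like and 42.5 and 64.6 in smooth muscle-like cells. The telocyte-like and pericyte-like values stood far apart between the libraries. Igfbp6 was at 83.0 and 94.9 in fibroblast-like cells and at most 12.8 in the other 5, so that fibroblast-like cells held 86.3% and 90.5% of its UMIs. Igfbp7 was at 3918 and 3938 in fibroblast-like, 3969 and 3673 in blood endothelial-like, 2597 and 2636 in pericyte-like, 2233 and 2281 in telocyte-like, 1621 and 1615 in smooth muscle-like and 131 and 221 in lymphatic endothelial-like cells. As in bulk, lymphatic endothelium stood apart by its low Igfbp7.

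Tested over the 2 libraries with library as a block, telocyte-like cells had 0 of the 7 genes higher and 6 lower than fibroblast-like cells, where 25.2% of all genes were called, 11.7% higher and 13.5% lower. The differences were -0.41 for Igf1 (adjusted p = 0.00197), -1.47 for Igf1r, -2.38 for Igfbp4 (9.73e-14), -2.34 for Igfbp5 (4.97e-11), -3.80 for Igfbp6 (4.54e-13) and -0.80 for Igfbp7 (0.00221), all as log2 values with edgeR's adjusted p. DESeq2 did not call Igf1 (adjusted p = 0.435) or Igfbp7 (0.496). Igfbp3 gave -0.28 (adjusted p = 0.271), but -2.53 (9.47e-14) where a cell needed 5 markers in place of 3. That stricter rule kept 117 of 140 and 113 of 133 telocyte-like cells, and their unscaled Igfbp3 level was 81.0 and 57.8 UMI CPM.

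Blood against lymphatic endothelial-like cells gave 4 genes higher and 1 lower, beside 23.2% of all genes called (13.4% higher, 9.8% lower). Igfbp7 was higher by 4.43 (log2, SE 0.27, adjusted p = 9.87e-15), close in size to the bulk value. Igfbp5 was lower by a difference of -2.93 (SE 0.30, adjusted p = 2.13e-09). Igfbp3 (0.79, adjusted p = 0.0172) and Igfbp4 (0.53, adjusted p = 0.00722) were higher in edgeR and not called by DESeq2, and Igf1 was the fourth.

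Smooth muscle-like against pericyte-like cells gave 2 genes higher, Igf1 and Igf1r, and 4 lower, beside 18.1% of all genes called (9.03% higher, 9.07% lower). Those lower in smooth muscle-like cells were Igfbp3 (-1.70, adjusted p = 0.000343), Igfbp4 (-2.18, 1.40e-10), Igfbp5 (-1.28, 2.44e-06) and Igfbp7 (-0.69, 0.0132). The edgeR calls for Igfbp5 and Igfbp7 were lost in DESeq2 (adjusted p = 0.0505 and 0.624). The muscle classes, weighted equally, against the telocyte-like and fibroblast-like classes gave Igfbp5 (1.10) and Igf1r (0.78) higher and the other 5 lower, from -0.53 (Igfbp7) to -2.69 (Igfbp6), where 33.3% of all genes were called (15.1% higher, 18.2% lower). DESeq2 did not call Igfbp7 in this contrast (adjusted p = 0.471). The muscle average joins unlike classes: Igf1 gave -0.64 (-2.05 with the stricter rule) although smooth muscle-like cells had the highest level of the 6 classes, and Igfbp5 gave 1.10 although smooth muscle-like cells lay below fibroblast-like cells.

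The stromal against the endothelial classes, here from the same libraries, gave 4 genes higher and 1 lower, beside 46.5% of all genes called (25.8% higher, 20.7% lower). Igf1, Igfbp5 (1.25, adjusted p = 1.17e-06), Igfbp6 (2.39, 6.20e-05) and Igfbp7 (1.86, 3.97e-11) were higher in the stromal classes, and Igfbp4 was lower (-1.60, 5.55e-14). The fitted fold of Igf1 is not given, since the lymphatic class had no UMI. For Igfbp7 the endothelial side averages unlike classes, since blood endothelial-like cells were at the level of fibroblast-like cells and above telocyte-like cells, and only the lymphatic class lay below both. The direction for Igf1 and Igfbp5 is that of bulk, where Igfbp4 (-0.49, adjusted p = 0.197), Igfbp6 (0.90, 0.180) and Igfbp7 (0.21, 0.692) were not called. For Igfbp5 this holds only for the averages. Telocyte-like cells lay below lymphatic endothelial-like cells in both libraries, while bulk telocytes were above lymphatic endothelium by 3.40.

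In the sorted library the telocyte-like class held 708 cells, the fibroblast-like class 1239, and 1738 cells (45.2%) met no class. With 1 library there is no test, and the values are ratios of unscaled UMI CPM (the class's UMIs over its total) with exact 95% intervals for counting error only. Telocyte-like over fibroblast-like cells was 1.86 for Igf1 (1.71 to 2.01, from 1172 and 1161 UMIs), 0.55 for Igf1r, 0.71 for Igfbp5 and 0.64 for Igfbp7. It was 0.27 for Igfbp3, 0.18 for Igfbp4 and 0.031 for Igfbp6 (27 and 1590 UMIs), and 0.19 for Igf2, from 2 and 19 UMIs (0.022 to 0.80). Igf2, Igfbp3, Igfbp4 and Igfbp6 were thus over 2-fold lower, as were 11.1% of the 11389 genes compared, and 0 were over 2-fold higher, as were 16.1%. The 4 are the genes called lower in bulk telocytes. Cells in no class had 600 UMI CPM of Igfbp3, against 145 in fibroblast-like and 38.5 in telocyte-like cells.

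Igf1 did not keep its sign over the 3 data sets: 0.42 in bulk without a call, -0.41 in whole mesenchyme and a log2 ratio of 0.89 in the sorted library. The difference between data sets was not tested. Barcodes with few UMIs, which hold free RNA, had 196 UMI CPM of Igf1 in the sorted library. Its fibroblast-like cells had 180 and its telocyte-like cells 335, and such barcodes of the whole-mesenchyme libraries had 66.9 and 64.5. These levels are all without TMM factors. The part of free RNA in this difference was not tested. For Igfbp4 and Igfbp6 all 3 data sets put telocytes lower, by a log2 difference of -1.78, -2.38 and -2.50 for Igfbp4 and of -6.52, -3.80 and -5.00 for Igfbp6.

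**Figure D4:**
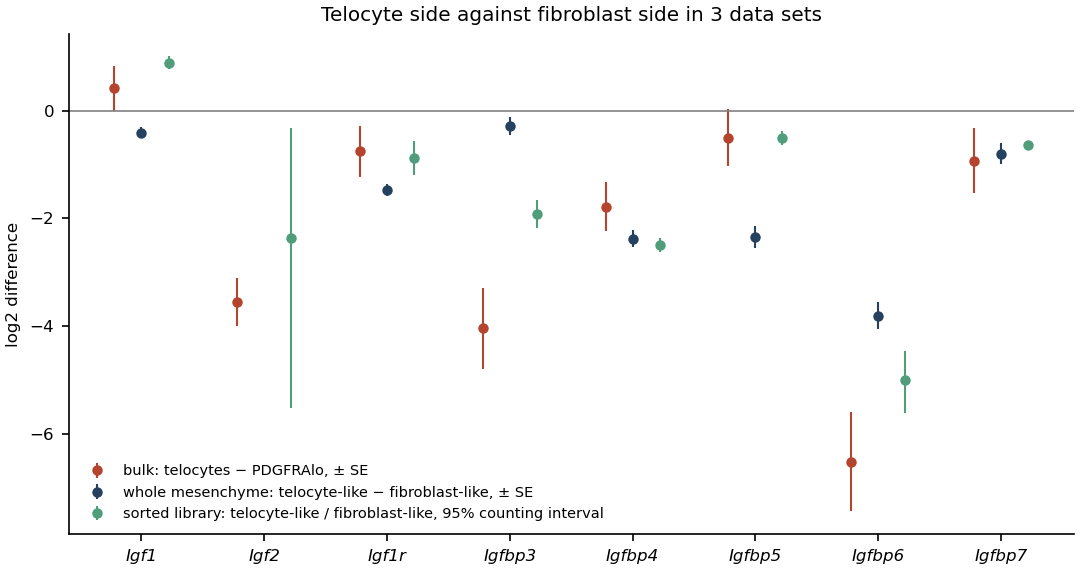
Difference between telocytes and PDGFRAlo or fibroblast-like cells (log2) for 8 IGF genes in the bulk, whole-mesenchyme and sorted single-cell data, with bars for the SE in the first and second and the exact 95% counting interval in the third. Igf1 lies on both sides of 0, and the other genes lie below 0 wherever they were measured.

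Within a class the genes were spread unevenly over cells. The tenth of telocyte-like cells with the most Igfbp5 held 91.8%, 93.8% and 95.7% of its UMIs in the sorted library and the 2 whole-mesenchyme libraries, and for Igfbp3 the shares were 100.0%, 82.6% and 86.4%. For Igf1 they were 42.9%, 39.0% and 43.5%, and for Igfbp7 21.9%, 21.3% and 21.6%. These shares depend on depth, since a gene with few UMIs cannot be spread over all cells.

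Cells were divided further by UMIs of genes that mark subsets in earlier results of these data, a description without a test. Levels in these divisions are UMI CPM without TMM factors. Telocyte-like cells with a UMI of Wif1 or Chrd, a Wnt and a BMP antagonist, had 423, 435 and 384 UMI CPM of Igf1 in the sorted and the 2 whole-mesenchyme libraries, against 164, 178 and 153 in the rest. The ratios were 2.57 (2.21 to 3.02), 2.44 (1.92 to 3.12) and 2.51 (1.94 to 3.27). Igfbp5 was also higher in them, with ratios of 4.80, 5.75 and 1.89. Telocyte-like cells with a UMI of Slitrk6, a neuronal adhesion-type membrane protein, had less of both: the ratios to the rest were 0.38, 0.48 and 0.36 for Igf1 and 0.21, 0.085 and 0.092 for Igfbp5.

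Igfbp4 and Igfbp3 differed between libraries in the division by Wif1 or Chrd. The Igfbp4 ratio between telocyte-like cells with and without these markers was 2.82 (2.22 to 3.62) in the sorted library but 0.97 and 0.81 in whole mesenchyme. The Igfbp3 ratio was 1.23 (0.84 to 1.82) in the sorted library but 0.039 and 0.115 in whole mesenchyme, where the rest had 879 and 363 UMI CPM. That level rests largely on cells that the stricter rule leaves out: with the stricter rule the whole telocyte-like class went from 501 to 72 and from 220 to 54 Igfbp3 UMIs, and the division was not repeated there. Cells with a marker UMI were deeper in the sorted library (median of 5307 against 3960 UMIs) and in whole-mesenchyme library 2 (8535 against 7200), and about as deep in library 1 (7561 against 7630). The part of depth in these ratios was not tested, although CPM levels are scaled to it.

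Binding-protein levels differed between divisions of the fibroblast-like cells that overlap, since a cell can hold UMIs of several markers. Of 1239, 1057 and 984 such cells, 146, 42 and 39 had Pi16 and 561, 753 and 698 had Aldh1a3 or Mmp10. Grem1 was found in 809, 590 and 544, and Dkk2 in 830, 533 and 478. Cells with a UMI of Pi16, a marker of adventitial fibroblasts, had 571, 600 and 750 UMI CPM of Igfbp6 against 202, 66.9 and 69.8 in the rest, ratios of 2.83, 8.96 and 10.7. Their Igfbp3 rested on 26, 1 and 3 UMIs, against 161, 353 and 375 UMI CPM in the rest. Cells with a UMI of Aldh1a3, a retinoic acid-making enzyme, or Mmp10, a matrix metalloprotease, showed the reverse. Their Igfbp3 was higher, with ratios of 4.35, 5.68 and 6.68, and their Igfbp6 lower, with ratios of 0.40, 0.19 and 0.22. Igfbp3 itself marked this subset in the earlier results, so its higher level here was built into the choice of markers. Igf1 (1.36, 1.38 and 1.42) and Igfbp5 (2.49, 1.58 and 1.56) were also higher in Aldh1a3 or Mmp10 cells in all 3 libraries. For Igfbp5 in Pi16 cells the direction differed, with ratios of 0.42, 1.10 and 2.44. Cells with Grem1, a BMP antagonist, had more Igfbp6 (2.25, 2.32 and 1.78) and less Igfbp3 (0.33, 0.26 and 0.30) than the rest, and Igfbp4 and Igfbp7 stayed between 0.77 and 1.19 in all of these fibroblast divisions. In a further division by Dkk2 the direction for Igfbp3 differed between libraries, with ratios of 1.47, 0.34 and 0.27.

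**Figure D5:**
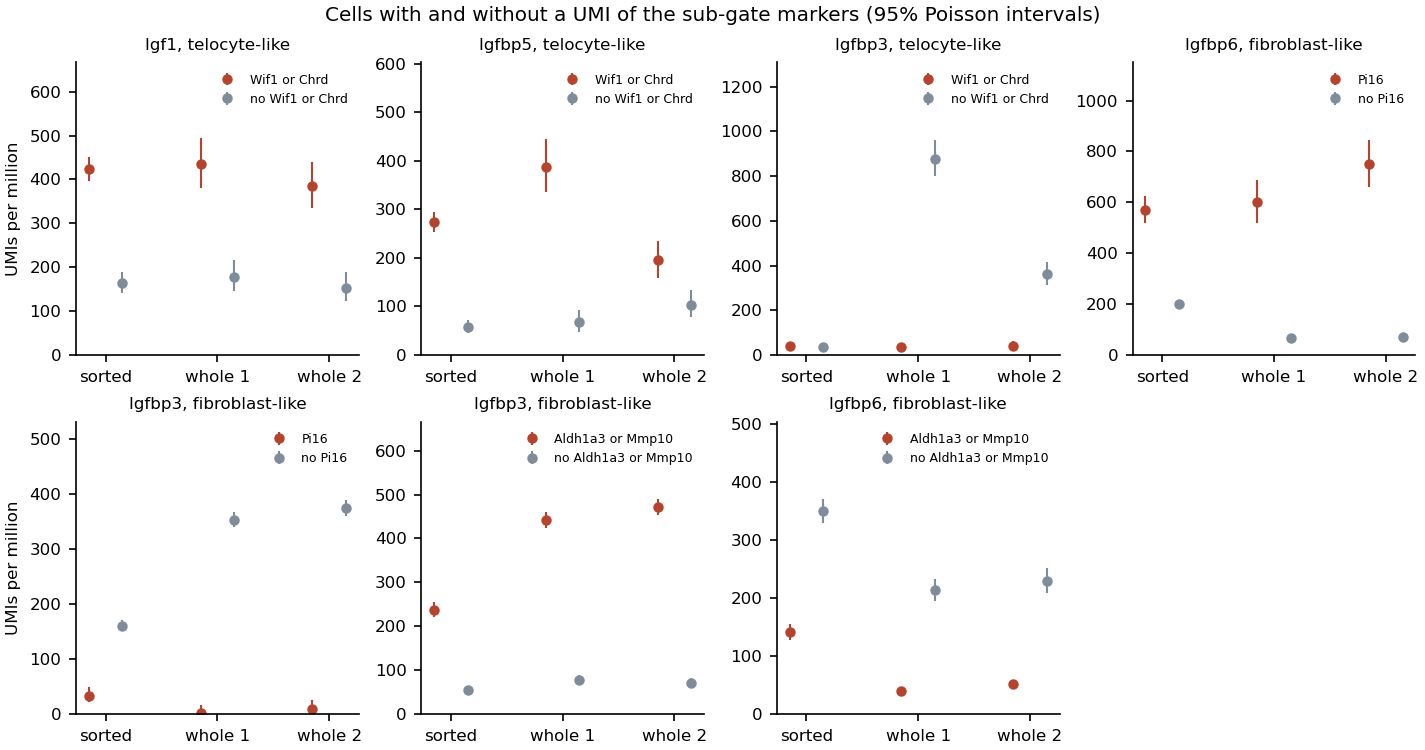
UMI CPM of Igf1, Igfbp3, Igfbp5 and Igfbp6 in telocyte-like or fibroblast-like cells with and without a UMI of the named markers, in the sorted library and the 2 whole-mesenchyme libraries, with exact 95% Poisson intervals for counting error only. Igf1 is above 380 in Wif1 or Chrd cells and below 180 in the rest in every library, and Igfbp3 and Igfbp6 change places between the fibroblast divisions. Igfbp3 was itself a marker of the Aldh1a3 or Mmp10 subset in earlier results of these data. Levels are without TMM factors, and the fibroblast divisions overlap in cells.

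Other genes of the pathway were counted from lists of 52 genes, of which 44 were tested in bulk. Called were 15 of 44 between telocytes and PDGFRAlo cells, 16 between blood and lymphatic endothelium and 35 between the PDGFRA and endothelial populations, beside 14.9%, 23% and 60.5% of all genes. In telocytes against PDGFRAlo cells, 3 of 14 receptor and signalling genes were lower and 0 higher, with a median log2 difference of -0.16 beside -0.03 over all genes. Insrr, the orphan relative of the insulin receptor, was lower by a difference of -7.33 (adjusted p = 0.00271), at 0.06 CPM or less in telocytes and 3.96 and 8.50 in PDGFRAlo cells. Foxo1, a transcription factor that IGF signalling keeps out of the nucleus, was lower by -1.68 (adjusted p = 0.0126), at 51.2 and 46.9 against 143 and 170 CPM, a call lost without TMM and without telocyte library 1, telocyte library 2 or PDGFRAlo library 2.

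Beside 14.9% of all genes called between the stromal populations, 2.77% higher and 12.1% lower in telocytes, the other lists gave small counts. Of 8 tested genes for proteases and their regulators, 0 were higher and 3 lower in telocytes, with a median of -0.60. Prss23, a secreted serine protease, was at 18.4 and 36.9 CPM in telocytes and 674 and 2197 in PDGFRAlo cells (-5.70, adjusted p = 0.00101), and Stc2, an inhibitor of PAPP-A, at 13.9 and 8.23 against 154 and 323 (-4.43, adjusted p = 0.00119). Of 9 genes with a domain of the IGFBP type, 1 was higher and 3 lower (median -1.02). Wisp1, a matricellular protein, was higher in telocytes, at 141 and 113 against 7.79 and 9.10 CPM (3.91, adjusted p = 0.00115), and its relative Nov was lower (-6.18, adjusted p = 0.00112). Of 5 imprinted growth genes, 1 was higher and 3 lower (median -2.21): Plagl1 was higher (2.11, adjusted p = 0.00588) and Mest lower (-3.89, adjusted p = 0.0124). Both calls were lost without telocyte library 2. That of Mest was also lost without PDGFRAlo library 1 and in a fit of only the telocyte and PDGFRAlo libraries. Of the genes for Igf2 mRNA-binding proteins, Igf2bp2 was lower in telocytes (-6.51, adjusted p = 0.00262), and 0 of 6 growth hormone-axis genes were called.

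Between blood and lymphatic endothelium, 5 of the 14 receptor and signalling genes were higher in blood and 2 lower (median 0.22 beside 0.12 over all genes). Insr, the insulin receptor gene, was at 54.7 and 73.8 CPM in blood and 18.4 and 15.9 in lymphatic endothelium (1.91, adjusted p = 0.00388). Irs1, an adaptor of both receptors, was among them, at 1.09 and 0.50 CPM in blood endothelium with 0 counts in the lymphatic libraries. Of the domain relatives 4 were higher and 0 lower, among them Esm1, an endothelial proteoglycan (3.81, adjusted p = 0.00542), and Wisp1 (4.17, adjusted p = 0.00423). The protease Htra1 was higher (2.22, adjusted p = 0.00544), and Plau, the urokinase gene, was lower (-2.25, adjusted p = 0.0276), a call lost without any 1 of these 4 libraries. Socs2 (1.76, adjusted p = 0.0113) and Ghr (1.36, adjusted p = 0.0477), of the growth hormone axis, were higher, and Mest was lower (-3.90, adjusted p = 0.00494). Without lymphatic library 2 the calls of Irs1, Wisp1, Socs2 and Ghr were lost, and that of Ghr was also lost in most other alternatives.

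Between the PDGFRA and the endothelial populations, 9 of 14 receptor and signalling genes were higher and 2 lower (median 1.49 beside -0.07 over all genes). Irs1 was at 25.7 to 39.4 CPM in the 4 PDGFRA libraries and at most 1.09 in the endothelial ones, and Akt2, a kinase downstream of the receptor, was higher by 2.93 (adjusted p = 3.72e-05). Of 8 protease genes and regulators, 5 were higher and 3 lower, and none of the 8 was left without a call. They included Htra1 (4.59, adjusted p = 6.32e-06) and Htra3 (7.05, adjusted p = 7.48e-06), secreted proteases with a domain of the IGFBP type, the latter at 2321 and 2637 CPM in PDGFRAlo cells. Of 6 growth hormone-axis genes, 4 were higher and 1 lower (median 1.33), among them the receptor gene Ghr, at 217 to 334 CPM in the PDGFRA and 15.7 to 62.9 CPM in the endothelial libraries (3.33, adjusted p = 3.84e-05), and Stat5a, a transcription factor that this receptor activates (1.86, adjusted p = 0.000264). Plagl1 (4.49, adjusted p = 7.83e-06) and Peg3 (7.24, adjusted p = 1.09e-05) were higher and 2 of the 5 imprinted genes lower. Nov was lower (-4.44, adjusted p = 8.07e-05) and Wisp1 higher (5.02, adjusted p = 1.98e-05).

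The genes whose bulk levels ran closest to each member were found by Pearson correlation of log2(CPM + 1) over the 8 libraries, among 7776 or 7777 genes. The closest to Igf1 were Ybx3 (0.99), Tapt1 and Cog2, and to Igf2 the endothelial tetraspanin gene Tspan7 (0.99), Clca3a1 and Clu. Igfbp6 ran with the alcohol dehydrogenase gene Adh1 (0.98), the heparanase gene Hpse and the microfibril gene Mfap5, all high in PDGFRAlo cells. Igfbp5 ran with Aldh18a1 (0.99), Akt2 and Xpo6, Igfbp3 with Pde8a (0.99), Cdk17 and Eid1, and Igfbp4 with Il13ra1 (0.97), Zfp521 and Fam234b. Igfbp7 ran with Zzef1 (0.98), Tnrc6c and Rapgef1, and Igf1r with Raly (0.95), Rasl11a and Id4. With 4 populations behind 8 points, such values describe which populations are high and low.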

How the data were processed

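Bulk values are whole-number counts per gene symbol that the authors deposited as 1 table. The alignment used STAR and the mm10 build, per the submitters' processing notes, and which program, annotation and strand setting gave the counts is not given in the sources used here. Single-cell values are UMI counts that the authors deposited as Cell Ranger matrices (versions 2.1.1 for sorted cells and 3.0.2 for whole mesenchyme, as the submitters' processing notes list them). Of 24969 bulk names, 26 that read as dates (0.131% to 0.523% of counts) were left out, and 24449 matched GENCODE M21.

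Bulk counts were tested with edgeR 4.0.16 (R 4.3.3, limma 3.58.1): filterByExpr, TMM, quasi-likelihood F-test, 4 group means in 1 fit with 4 residual degrees of freedom, Benjamini-Hochberg adjustment over 14893 genes, called under 0.05. For the 12 classes with 20 or more cells in both whole-mesenchyme libraries, UMI sums were tested likewise with library as a block (12685 genes, 11 residual degrees of freedom). DESeq2 1.42.0 was an alternative. Both tests were also run on simulated counts with known changes, where all genes had the same spread. The outcome is not given here and is not used as support for the calls.

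Cells were kept with 500 or more genes, under 10% mitochondrial UMIs and a scrublet score (scanpy 1.11.5) of at most 0.25, a fixed limit because the automatic one marked too few. This removed 45, 98 and 113 cells. A class needed 3 or more of its markers and a mean z-score over 0.25; this rule was set after seeing the data. Cells just around that limit numbered 151, 17 and 31. The whole-mesenchyme libraries differed by more than counting noise (median chi-square of 0.802 over 15435 genes, where counting alone gives 0.455). They entered the tests as 2 libraries. This check cannot tell separate animals from separate libraries of the same cells.

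The members, pathway lists and subset markers were chosen with earlier results of these data known. Named pathway genes are the 2 called genes with the smallest p per list and bulk contrast, and genes alike in pattern are the 3 with the highest correlation among those with a mean of 20 CPM or more, for members with 10 CPM or more. Intervals cover counting error only.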

Additional observations from a re-analysis of the deposited data

How the results depend on the processing

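Leaving out each bulk library in turn gave 3 to 4 members lower and 0 to 0 higher in telocytes than in PDGFRAlo cells, 2 to 4 higher and 0 to 1 lower in blood than in lymphatic endothelium (the 1, Igfbp5, without blood library 2: -2.20, adjusted p = 0.0242), 2 to 3 higher and 1 to 2 lower in the PDGFRA than in the endothelial populations (Igfbp3 the second lower without telocyte library 2), and 5 to 10 neighbouring steps that differed. For PDGFRA against endothelial populations, 4 members were higher without a low-count filter (2 as reported), and 3 were lower without the lymphatic libraries (1 as reported), a fit chosen after seeing the data in which Igfbp7 turned to -1.86 and Igf1r to -0.14. In whole mesenchyme, DESeq2 called 2 members higher in blood than lymphatic endothelial-like cells (4 as reported) and 2 lower in smooth muscle-like than pericyte-like cells (4 as reported). The stricter class rule gave 2 members lower in stromal than endothelial classes (1 as reported; Igfbp3 was added). Per kilobase of the longest transcript, Igfbp7 was 90.5% of the binding-protein level in telocytes and 79.2% in PDGFRAlo cells. Signs that turned without a call were Igfbp4 between blood and lymphatic endothelium (-0.061 in DESeq2, -0.14 without TMM, -0.054 with these 4 libraries alone, -0.0074 with a replicate block, and -0.37 to 0.52 with 1 library left out), Igf1r between telocytes and PDGFRAlo cells (-1.25 to 0.056), Igf1 between blood and lymphatic endothelium (-0.52 to 0.41), and for PDGFRA against endothelial populations Igfbp7 (-0.074 to 0.70) and Igfbp6 (-0.15 to 1.42), all ranges with 1 library left out. The cause was not tested. Replicate numbers are shared between populations but were not taken as pairs, since the labels tie them to no shared animal or batch; the correlations of deviations were 0.12 and 0.28 within a mouse line and -0.10 to 0.02 across lines. With the replicate block 407 genes were higher and 1724 lower in telocytes, against 412 and 1800, and the members called were the same 4, but the step from lymphatic endothelium to telocytes for Igfbp3 lost its call and that from blood endothelium to telocytes for Igfbp6 gained one. Without TMM the median of all genes moved to 0.20 and 0.24 for telocytes against PDGFRAlo cells and for PDGFRA against endothelial populations, and 57.0% rather than 47.6% of called genes were higher in the latter. Leaving out 1 whole-mesenchyme library leaves no residual degrees of freedom.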

Other observations

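Whole mesenchyme also held cells outside the stromal, muscle and endothelial classes. Enteric glia-like cells, with 34 and 23 cells in the 2 libraries, had 2809 and 2071 UMI CPM of Igfbp7 and 184 and 178 of Igf1r, the latter within the range of fibroblast-like and smooth muscle-like cells. They had 0 UMIs of Igf1 and Igfbp6 in both libraries. Plasma-like cells, the deepest class with a median of 22579 and 22533 UMIs, had 49.3 and 57.0 UMI CPM of Igfbp7. T or innate lymphoid-like cells had 86.5 and 88.2 UMI CPM of Igf1r, a level close to that of the endothelial-like classes, and 21.8 and 17.0 of Igfbp7. Barcodes with few UMIs, which hold free RNA, had 654 and 691 UMI CPM of Igfbp7 without TMM factors. On that scale plasma-like cells had 17.6 and T or innate lymphoid-like cells 21.5 in library 1. The part of free RNA in the Igfbp7 levels of plasma-like and T or innate lymphoid-like cells was not tested.

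Igf2 differed between the assays in a way the report's comparisons do not cover. Bulk blood endothelium had 1709 and 792 counts of it, while blood endothelial-like cells of whole mesenchyme had 1 UMI in each library, or 1.08 and 1.15 UMI CPM. The 2 scales differ, since bulk counts come from reads along transcripts and UMIs from their 3' ends. Exons of Igf2os also overlap those of Igf2, as given above, and the strand setting of the bulk counts is not known. The part of scale or of this overlap in the difference was not tested.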
